A study of Brassica napus with 12 samples.

Results

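The JASMONATE ZIM-DOMAIN (JAZ) genes of oilseed rape, Brassica napus, were followed across 12 leaf RNA-seq libraries. Members were the loci whose closest Arabidopsis match in the deposited annotation was JAZ1 (AT1G19180), JAZ2 (AT1G74950), JAZ3 (AT3G17860), JAZ5 (AT1G17380), JAZ6 (AT1G72450), JAZ7 (AT2G34600), JAZ8 (AT1G30135), JAZ9 (AT1G70700), JAZ10 (AT5G13220) or JAZ12 (AT5G20900). This gave 51 loci of 101040, which stand for 10 of the 21607 Arabidopsis genes with a match. Each JAZ gene was matched by 3 to 7 loci, 25 of them on the A subgenome and 26 on the C subgenome, and 6 lie on sequence not placed on a chromosome. A gene is named here after its Arabidopsis match, and its level is the sum over its loci.

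All plants were B. napus RV31, grown for 21 days in white light (70 µmol m-2 s-1). By the times in the labels, true leaves were harvested 4 h from the start of each treatment. The 6 groups hold 2 libraries each, numbered 41 and 42. White light plants received no UV-B and were the controls of plants given UV-B (3 µmol m-2 s-1) for 4 h. Herbivory plants carried larvae of the diamondback moth, Plutella xylostella, for 1 h. The labels place a further 3 h between the larvae and harvest, whereas the methods of the study give a longer interval. MeJA plants were sprayed with 4 mL of 100 µM methyl jasmonate, the volatile ester of the wound hormone jasmonic acid, in a spray that also held ethanol and the wetting agent UN65, each at 0.01%. One set of controls was sprayed with 4 mL of ethanol and UN65 at the same strengths and so matched the solvent of the hormone. The other was sprayed with 4 mL of distilled water, so that hormone and solvent cannot be told apart in MeJA against water. By the methods of the study, herbivory and sprayed plants were kept in dimmer white light than white light plants, and sprayed plants were covered. For UV-B plants the methods state no white light level during irradiation, and place them on another shelf than their controls. Both UV-B and white light plants had been moved to dimmer light the night before. Herbivory plants stood in mesh cages in a cabinet set warmer than during growth, and their damaged leaf tissue was taken. The methods also describe caged control plants without larvae, but no library is labelled as such. RNA of several plants was pooled, and nothing states that libraries 41 and 42 came from separate plants, so p-values measure only the spread between these libraries.

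JAZ proteins are repressors of the jasmonate response. In Arabidopsis their Jas domain holds MYC transcription factors inactive, and the adaptor NINJA joins most of them to the co-repressor TOPLESS. The active hormone, jasmonoyl-isoleucine, makes JAZ proteins bind the F-box protein COI1, after which they are degraded. The freed MYC factors then activate defence genes and the JAZ genes themselves, so JAZ transcripts are widely used as early markers of wounding and insect feeding.

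The values are FPKM, fragments per kilobase of transcript normalised to the fragments of a library, rescaled so that the libraries have a common median ratio. Read numbers per library are unknown. Low values of each other library were compared with those of herbivory 42. They rose in steps of whole reads in all but UV-B 41 and ethanol and UN65 41, where no steps were found. Where steps were found, 1 read was worth between 1.137 and 1.688 times its value in herbivory 42. Leaf markers were abundant, with RCA (Rubisco activase) between 2623 and 16273 FPKM and LHCB2.1 between 228 and 2922 FPKM, whereas RBCS1A reached 19.6 FPKM at its 1 matched locus. CASP1 of the root endodermis stayed at or under 1.16 FPKM, and the floral genes AG and AP3 at or under 0.154 and 1.70 FPKM. Differences were tested with limma on log2(FPKM + 1) with Benjamini-Hochberg adjustment over all 50281 loci or all 17032 summed genes tested. A difference was called where the adjusted p was under 0.05 and the log2 fold change was 1 or more in either direction. Of the member loci, 48 passed the filter of 1 FPKM in 2 libraries. The loci below it were BnaA06g11690D and BnaC05g13540D of JAZ5, which stayed at or under 0.339 and 0.478 FPKM, and BnaA05g09200D of JAZ7, which reached 1.89 FPKM.

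The family was dominated by a few genes. Over all libraries, with most weight on the MeJA libraries where the sums were largest, JAZ9, JAZ2 and JAZ12 together made 67.9% of the summed family FPKM, and JAZ7 and JAZ8 made 2.03%. Mean levels fell in the order JAZ9 (570 FPKM), JAZ2 (307), JAZ12 (153), JAZ6 (137), JAZ1 (94.98), JAZ3 (89.1), JAZ10 (68.6), JAZ5 (66.3), JAZ8 (16.1) and JAZ7 (14.6). The order differed between groups. JAZ9 had the highest mean in all 6, and JAZ2 came next in 5, while under UV-B JAZ12 lay above JAZ2 (190 against 184 FPKM) with overlapping libraries. JAZ3 had a higher mean than JAZ1 in white light, under UV-B, with ethanol and UN65 and in water, and a lower one under herbivory and after MeJA. Of the 10 genes, 7 had their highest group mean after MeJA, JAZ7 and JAZ8 had it under herbivory, and JAZ3 had it under UV-B. Group means were lowest in water for all 10. The family summed to 3483 and 3256 FPKM after MeJA, 1858 and 1567 under herbivory, 1638 and 850 in white light, 1463 and 733 with ethanol and UN65, 896 and 1398 under UV-B, and 372 and 682 in water. These are bulk leaf samples, in which more cells with a transcript and more transcript per cell cannot be told apart.

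**Figure D1:**
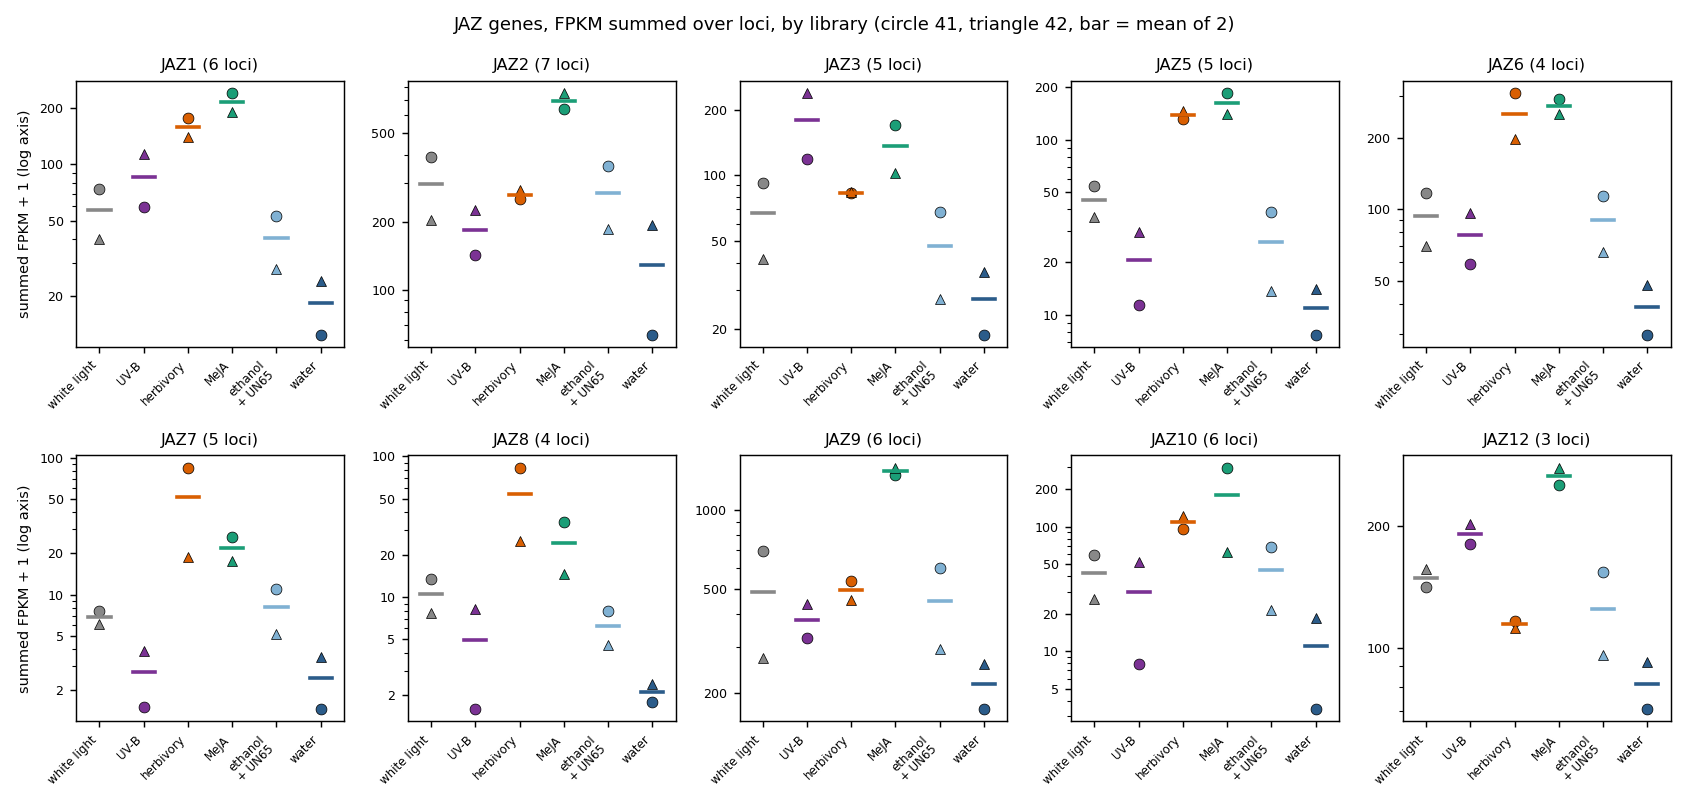
FPKM summed over the loci of each JAZ gene, plus 1, on a log axis, for 6 groups of leaves. Circles are library 41, triangles library 42 and bars the mean of 2; MeJA libraries lie above both water libraries in all 10 panels.

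MeJA was compared with water to ask how the family differed after the hormone with its solvent. All 10 genes were higher after MeJA, by a median log2 fold change of 3.05 against -0.02 over all genes tested, and 4 of them were called: JAZ1, JAZ5, JAZ6 and JAZ12. Over all genes tested, 0.816% were called higher. In all 10 genes both MeJA libraries lay above both water libraries, against 17.8% of all genes.

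JAZ1, the first JAZ protein shown to be degraded through COI1, had 238 and 190 FPKM after MeJA and 11.4 and 23.2 in water. The groups were far apart, and the log2 fold change was 3.62 ± 0.49 (SE, n = 2 and 2), with an adjusted p of 0.0268 in limma. JAZ5 had 183 and 140 FPKM after MeJA and 6.71 and 13.1 in water, a log2 fold change of 3.95 ± 0.57 with an adjusted p of 0.0275. JAZ6 had 291 and 251 FPKM after MeJA and 28.7 and 47.2 in water, a log2 fold change of 2.84 ± 0.43 with an adjusted p of 0.0275. JAZ5 and JAZ6 are a closely related pair that in Arabidopsis carry an EAR motif, a short sequence that binds TOPLESS without NINJA. JAZ12, whose protein is stabilised in Arabidopsis by the ubiquitin ligase KEG, changed least. It had 252 and 278 FPKM after MeJA and 69.6 and 91.5 in water, and its log2 fold change was 1.72 ± 0.28 with an adjusted p of 0.0349.

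The other 6 genes did not pass the test. JAZ9 came closest, with 1357 and 1452 FPKM after MeJA, 172 and 257 in water and an adjusted p of 0.0522 at a log2 fold change of 2.73 ± 0.51. JAZ2, linked in Arabidopsis to the control of stomata, had 638 and 752 FPKM after MeJA and 62.2 and 194 in water, with an adjusted p of 0.0896. JAZ10, known in Arabidopsis for splice forms that resist degradation, had the largest log2 fold change and the widest error, 4.10 ± 1.13. Its MeJA libraries held 297 and 61.6 FPKM and its water libraries 2.42 and 17.6, so that replicates differed several-fold in both groups. JAZ7 and JAZ8, which in Arabidopsis lack the usual degron and bind COI1 poorly, had log2 fold changes of 3.26 ± 0.76 and 3.42 ± 0.82. JAZ3 had a log2 fold change of 2.35 ± 0.58. The adjusted p of these 4 genes lay between 0.114 and 0.211.

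At single loci, 47 of 48 were higher after MeJA, with both MeJA libraries above both water libraries in each, against 16.9% of all loci. These include 2 JAZ7 loci that passed the filter only through MeJA, so that the filter fixed their direction. BnaC04g10630D reached 1 FPKM only in the 2 MeJA libraries, and BnaA04g20270D only in those and herbivory 41. The call was made at 10 loci of 6 genes, against 0.436% of all loci. They were BnaA06g13250D, BnaA08g22180D and BnaC08g18640D of JAZ1, BnaA02g17040D and BnaCnng08230D of JAZ2, BnaAnng41010D of JAZ3, BnaC08g37780D of JAZ5, BnaC02g45660D and BnaC06g33640D of JAZ6, and BnaA02g05120D of JAZ12. The exception in direction was BnaC05g28170D of JAZ1, which lay between 1.23 and 4.51 FPKM in every library. The calls changed with the libraries in the fit more than the fold changes did. No gene was called without any 1 of the 4 compared libraries, and 3 to 5 were without any 1 of the other 8, which enter only through the shared spread. Of the 10 locus calls, 1 was left without MeJA 41 and 0 without MeJA 42 or either water library, but also 0 without either herbivory library, 2 without either ethanol and UN65 library and 3 without either UV-B library. Over all these fits the log2 fold change of JAZ1 stayed between 3.14 and 4.10.

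MeJA was next compared with ethanol and UN65, the control that matched its solvent. The comparisons share libraries and are given side by side. Against ethanol and UN65, all 10 genes were again higher after MeJA, with a median log2 fold change of 1.69, and 0 genes were called in limma, as over all genes tested (0%). Before adjustment 8 of 10 had a p under 0.05, against 5.43% of all genes that were higher with such a p. Both MeJA libraries lay above both controls in 9 genes, against 23.5% of all genes. The exception was JAZ10, whose MeJA 42 library (61.6 FPKM) lay below ethanol and UN65 41 (67.6 FPKM). JAZ5 and JAZ1 had the largest log2 fold changes, 2.81 ± 0.57 and 2.47 ± 0.49, with adjusted p of 0.215 and 0.206. Of 48 loci, 47 were higher and 0 were called in limma, against 0.00398% of all loci. Before adjustment 31 were higher with a p under 0.05, against 4.73% of all loci, and 38 had separate libraries, against 21.7%. The loci tested again include BnaC04g10630D and BnaA04g20270D, which passed the filter only through MeJA.

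With ethanol and UN65 against water, no JAZ gene or locus passed the test. All 10 genes had higher means with ethanol and UN65, by a median log2 fold change of 1.17, and the adjusted p was 1 for each. In 7 genes the libraries did not overlap, against 14.6% of all genes. None of the 10 was called in limma (0% of all genes), and 3 had an unadjusted p under 0.05, against 0.969% of all genes. Of 48 loci, 46 were higher, 28 of them with separate libraries, against 15.6% of all loci. None was called in limma (0.00199% of all loci), and 7 reached an unadjusted p under 0.05, against 1.84% of all loci. The ethanol and UN65 libraries themselves differed in one direction: all 10 genes were lower in library 42 than in 41, by a median log2 difference of -0.98. In water all 10 were higher in library 42, by a median of 0.91. JAZ6 shows the pattern, with 113 and 65.1 FPKM in ethanol and UN65 and 28.7 and 47.2 in water. Without ethanol and UN65 41 the median log2 fold change of MeJA against ethanol and UN65 was 2.27, and without 42 it was 1.11.

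**Figure D2:**
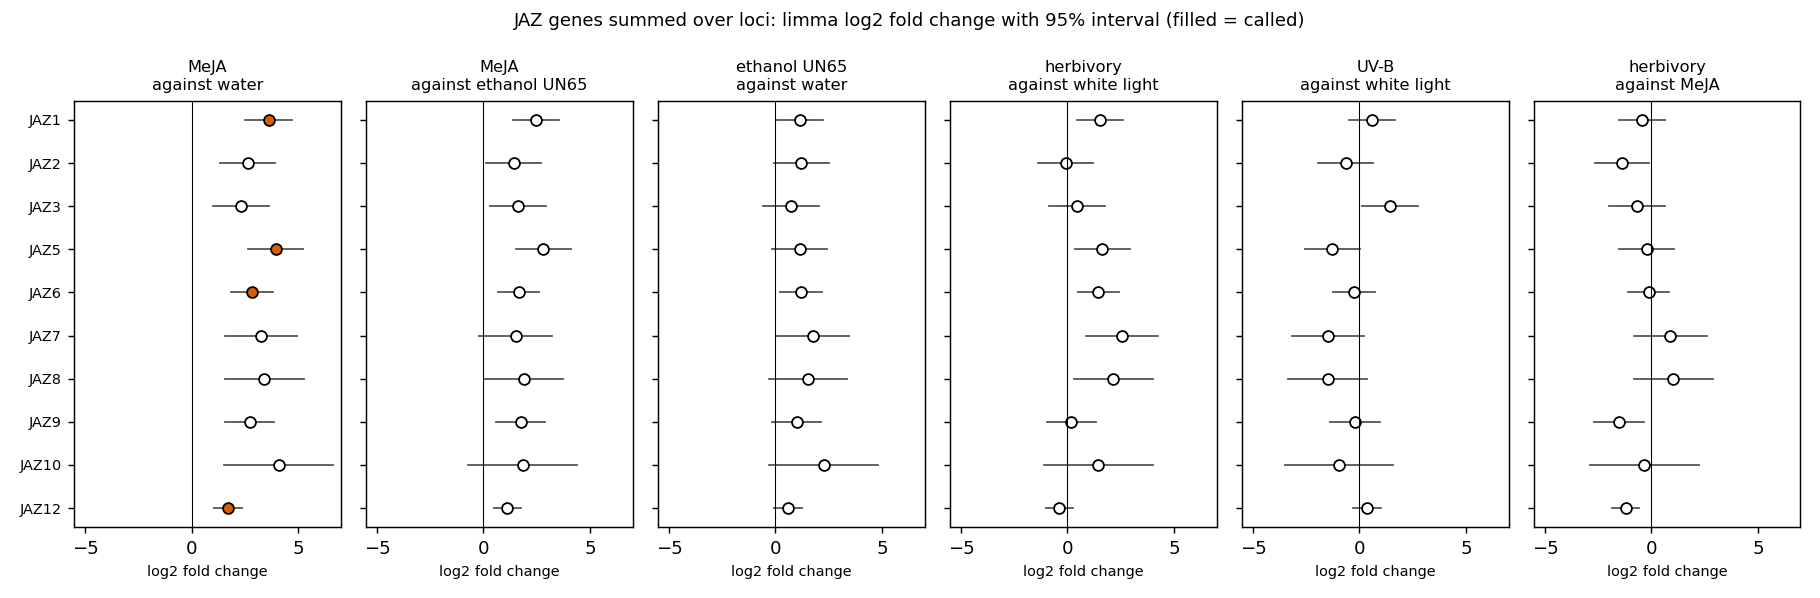
Log2 fold changes (limma, points) with 95% intervals (lines) of the 10 JAZ genes in 6 comparisons of 2 against 2 libraries. Filled points were called; they are JAZ1, JAZ5, JAZ6 and JAZ12 after MeJA against water.

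Feeding by P. xylostella was set against white light, the unsprayed plants. By the methods, light, cage, temperature and the leaf tissue taken also differed between these groups and cannot be told apart from feeding. Of the 10 genes, 8 were higher under herbivory, with a median log2 fold change of 1.45. None was called in limma, as over all genes (0%), and 5 had an unadjusted p under 0.05, all higher, against 4.35% of all genes. Both herbivory libraries lay above both white light libraries in 6 genes, against 19.7% of all genes: JAZ1, JAZ5, JAZ6, JAZ7, JAZ8 and JAZ10.

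JAZ7 had the largest value, a log2 fold change of 2.56 ± 0.76 with an adjusted p of 0.376. It held 83.8 and 17.8 FPKM under herbivory and 6.55 and 5.10 in white light, so the groups were separate while the herbivory libraries differed several-fold. JAZ8 was separate too, with 82.4 and 23.9 FPKM under herbivory and 12.4 and 6.76 in white light, a log2 fold change of 2.16 ± 0.82. JAZ5 was steadier, with 129 and 145 FPKM against 53.3 and 35.2, a log2 fold change of 1.64 ± 0.57. JAZ1 had 176 and 139 FPKM against 73.0 and 39.3, a log2 fold change of 1.53 ± 0.49, and JAZ6 had 308 and 197 against 116 and 69.1, a log2 fold change of 1.45 ± 0.43.

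The most abundant genes had smaller values. JAZ9 had 535 and 450 FPKM under herbivory, inside the range of 696.5 and 270 in white light, and its log2 fold change was 0.18 with a 95% interval from -0.98 to 1.34. JAZ2 had a log2 fold change of -0.09 with an interval from -1.37 to 1.20. JAZ12 was lower in both herbivory libraries, at 116 and 111 FPKM against 140 and 156, with a log2 fold change of -0.38 ± 0.28 and an adjusted p of 0.700. JAZ2 changed sign with the values as deposited, JAZ2 and JAZ12 did with equal library totals, and JAZ2, JAZ3 and JAZ9 did without 1 white light library. At single loci, 41 of 48 were higher, 33 of them with separate libraries, against 19.7% of all loci. None was called in limma, against 0.0159% of all loci, and 18 had an unadjusted p under 0.05, all higher, against 3.96%. The fit without herbivory 42, which leaves 1 herbivory library, did call member loci, but no share over all loci is given for it.

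Herbivory was also compared with water, which had the same light but was sprayed and covered. Cage and the leaf tissue taken differed here too, and the herbivory cabinet was set warmer than during growth. All 10 genes were higher under herbivory, each with separate libraries, against 25.4% of all genes, and 5 were called, against 0.358% of all genes. These were JAZ8 (log2 fold change 4.45 ± 0.82, adjusted p 0.0495), JAZ7 (4.15 ± 0.76, 0.0495), JAZ5 (3.73 ± 0.57, 0.0444), JAZ1 (3.18 ± 0.49, 0.0444) and JAZ6 (2.71 ± 0.43, 0.0449). In water JAZ8 held 0.794 and 1.43 FPKM and JAZ7 0.453 and 2.49 FPKM. Among loci 12 were called, against 0.642% of all loci, and all belonged to the same 5 genes. The 5 gene calls fell to 0 without either herbivory or either water library, and also without either MeJA library or either ethanol and UN65 library, which enter only through the shared spread.

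Against MeJA, herbivory gave lower values for 8 of the 10 genes, and 0 genes were called in limma, against 0.957% of all genes called lower. By the methods, spray, cover, cage and the leaf tissue taken also differed, and the herbivory cabinet was set warmer than during growth. These cannot be told apart from feeding or hormone. Before adjustment 3 were lower with a p under 0.05, JAZ2, JAZ9 and JAZ12, against 10.7% of all genes. In 5 genes both herbivory libraries lay below both MeJA libraries, against 28.5% of all genes. JAZ9 had a log2 fold change of -1.51 ± 0.51 with an adjusted p of 0.145, JAZ2 of -1.38 ± 0.57 with 0.212, and JAZ12 of -1.22 ± 0.28 with 0.0631. JAZ7 and JAZ8 pointed the other way, at 0.89 ± 0.76 and 1.03 ± 0.82, with overlapping libraries. JAZ12 was called with the values as deposited. A single locus was called, BnaA02g05120D of JAZ12, lower under herbivory by a log2 fold change of -1.39 ± 0.28 with an adjusted p of 0.0493, against 0.825% of all loci called lower. It held 31.0 and 36.6 FPKM under herbivory and 83.8 and 97.1 after MeJA. The call was lost in 17 of 22 alternatives, among them equal library totals, the replicate block and 10 of the 12 fits that left out 1 library, while the log2 fold change in those 12 stayed between -1.51 and -1.27.

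UV-B was compared with white light, its control without UV-B. No JAZ gene was called in limma, against 3.60% of all genes called higher and 1.39% called lower. Before adjustment 1 gene, JAZ3, had a p under 0.05 and was higher. Of all genes, 14.2% were higher and 10.1% lower with such a p. Of the 10 genes, 7 were lower and 3 higher under UV-B, with a median log2 fold change of -0.45 against 0.03 over all genes. That median was 0.06 without UV-B 41, in which all 10 genes were lower than in UV-B 42.

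JAZ3, the gene mutated in the jasmonate-insensitive jai3-1 mutant of Arabidopsis, had 118 and 237 FPKM under UV-B and 91.8 and 40.6 in white light. Both UV-B libraries were above both controls, and the log2 fold change was 1.44 ± 0.58 with an adjusted p of 0.173. JAZ12 was also separate and higher, at 180 and 201 FPKM against 140 and 156, with a log2 fold change of 0.36 ± 0.28. JAZ5 was lower, at 10.4 and 28.7 FPKM against 53.3 and 35.2, a log2 fold change of -1.27 ± 0.57 with an adjusted p of 0.215. JAZ7 was lower, at 0.512 and 2.90 FPKM against 6.55 and 5.10, a log2 fold change of -1.48 ± 0.76. Libraries were thus separate in 2 genes that were higher and in 2 that were lower, against 26.8% and 23.1% of all genes.

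Copies of 1 gene differed from each other under UV-B. No member locus was called by itself, against 2.68% of all loci called higher and 0.861% called lower, and 4 were higher and 2 lower with an unadjusted p under 0.05, against 12.3% and 9.55% of all loci. Libraries were separate in 8 loci that were higher and 14 that were lower, against 24.2% and 23.7% of all loci. Each locus was then compared with the sum of the other copies of its gene, a test chosen after the values of the copies had been seen. Of 48 member loci 3 were called, against 0.902% of the 45795 loci tested in this way. Reads of near-identical copies may be divided between loci by the counting, so levels of single copies are less certain than gene sums.

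In JAZ1, BnaC05g14810D (C05, bases 8732758 to 8734515) rose relative to the other copies by a log2 difference of 2.14 ± 0.34 with an adjusted p of 0.0341. It held 32.4 and 75.5 FPKM under UV-B and 16.2 and 11.5 in white light. BnaC08g18640D, the JAZ1 copy with the highest mean, held 10.3 and 10.2 FPKM under UV-B and 27.0 and 9.996 in white light. In JAZ2, BnaC06g22690D (C06, bases 24688123 to 24689626) fell relative to the other copies by a log2 difference of -2.94 ± 0.51 with an adjusted p of 0.0420. It held 7.80 and 15.8 FPKM under UV-B and 184 and 51.1 in white light, whereas the copy BnaC06g35750D held 60.6 and 94.9 FPKM under UV-B and 41.3 and 54.4 in white light.

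In JAZ3 the call was on BnaA05g22360D (A05, bases 17065189 to 17068186), which was lower relative to its other copies by a log2 difference of -1.85 ± 0.32 with an adjusted p of 0.0428. It held 6.03 and 12.1 FPKM under UV-B and 16.6 and 6.18 in white light, and these overlapped. The copies BnaA01g27170D, BnaAnng41010D and BnaC01g34620D carried the higher JAZ3 sum, with log2 fold changes of 1.92 ± 0.59, 1.82 ± 0.56 and 2.06 ± 0.70 that were not called. BnaA01g27170D held 47.6 and 98.1 FPKM under UV-B and 31.2 and 9.50 in white light. Over the 12 fits that each left out 1 library, the JAZ1 copy was called in 3, and the JAZ2 and JAZ3 copies in 2 each.

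**Figure D3:**
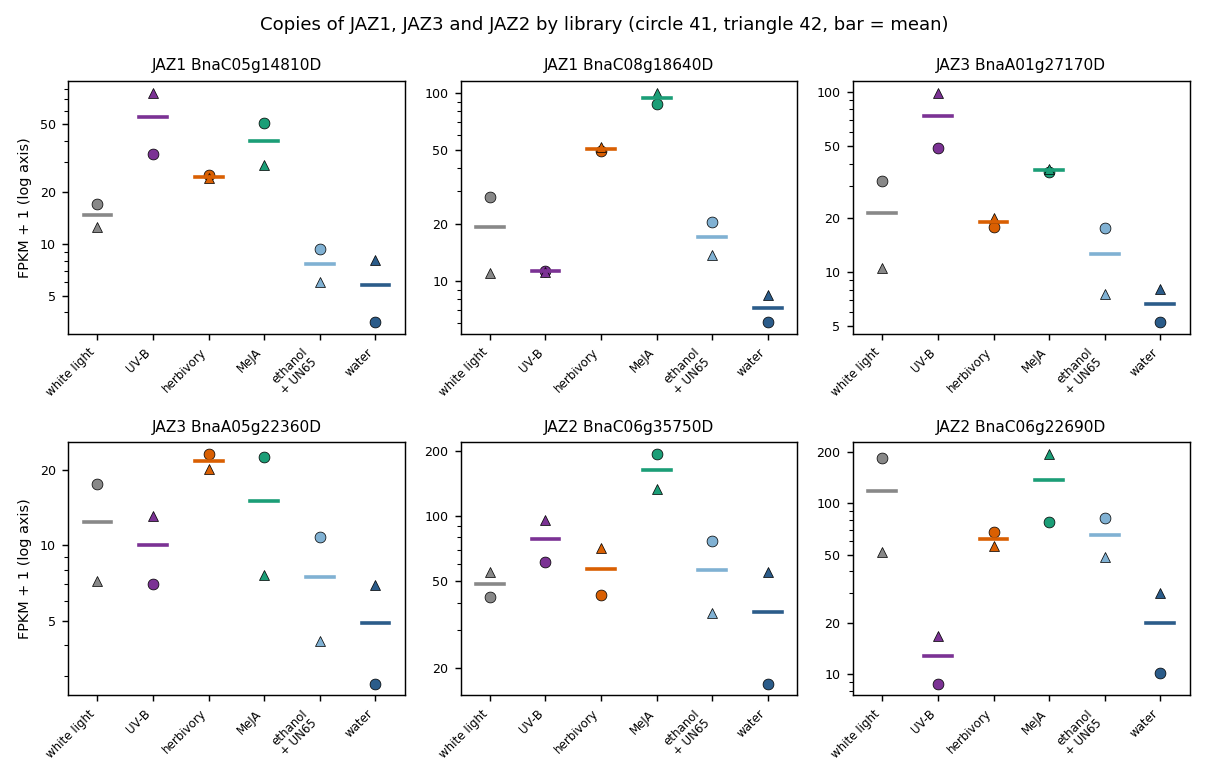
FPKM + 1 (log axis) of 6 copies of JAZ1, JAZ3 and JAZ2 in each library, with circles for library 41, triangles for 42 and bars for the mean of 2. BnaC05g14810D and BnaA01g27170D have their highest group mean under UV-B, where BnaC06g22690D is at 7.80 and 15.8 FPKM. The UV-B and MeJA libraries of BnaC05g14810D overlap.

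The same test was applied to copies in herbivory against water. BnaC05g28170D of JAZ1 and BnaC04g10630D of JAZ7 were called lower relative to their other copies, with log2 differences of -3.48 ± 0.65 and -4.49 ± 0.89 and adjusted p of 0.0443 and 0.0482. The call is 2 of 48 member loci, against 1.73% of all loci tested. BnaC05g28170D stayed level while the other JAZ1 copies were higher. BnaC04g10630D held 0.214 and 0.580 FPKM under herbivory and 0.453 and 0.380 in water, so that the groups overlapped at low values while the other JAZ7 copies were higher. It was listed at 0 in all white light and UV-B libraries and held 5.22 and 1.13 FPKM after MeJA, the only libraries where it reached the filter of 1 FPKM. With 1 added before log2, values as low as its own in herbivory and water can hardly differ. Its call thus restates that the other JAZ7 copies were higher. The main JAZ7 copy, BnaC03g19040D, held 56.2 and 11.3 FPKM under herbivory and 12.7 and 8.16 after MeJA. Without 1 library, the JAZ1 call was made in 2 of 12 fits and the JAZ7 call in 1. No member locus was called in this test after MeJA against water (0.00218% of all loci).

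Among JAZ8 copies, BnaA08g17540D held 45.9 and 15.0 FPKM under herbivory and 1.89 and 5.55 after MeJA, and BnaC03g59110D held 9.40 and 2.38 against 0.464 and 1.16. Both were separate and higher under herbivory. Of the 48 member loci, 3 were separate and higher under herbivory than after MeJA, against 25.9% of all loci. Another 22 were separate and lower, against 26.7% of all loci. BnaA09g26390D held 9.74 and 1.66 FPKM under herbivory and 13.4 and 3.16 after MeJA, and BnaC05g23060D held 17.4 and 4.82 against 17.5 and 3.74. In these the groups overlapped, and no JAZ8 copy was called against the others.

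JAZ9 had abundant and scarce copies. BnaA07g28810D and BnaC06g31830D averaged 170 and 146 FPKM over all libraries, and BnaC02g20120D and BnaCnng65670D 127 and 76.9 FPKM. In these 4 copies the mean after MeJA was between 4.98 and 7.78 times that in water. BnaA07g23750D and BnaC06g24560D averaged 13.3 and 37.4 FPKM, and their means after MeJA were 52.5 and 41.8 times those in water. These ratios rest on low water values. BnaA07g23750D held 47.0 and 25.9 FPKM after MeJA and 0.179 and 1.21 in water, and its ratio was 204 to water 41 alone and 30.1 to water 42 alone. The ratios of BnaC06g24560D were 67.1 and 30.4. BnaC06g24560D held 124 and 64.2 FPKM after MeJA and 1.40 and 3.09 in water, but also 56.0 and 5.65 in white light. JAZ10 was carried mainly by BnaA10g20060D and BnaC09g43860D, with 45.2% and 32.4% of its sum. Its copy BnaA03g04250D lies in a stretch of chromosome A03 that was low in UV-B 41 and ethanol and UN65 41, and was listed at 0 in both. The JAZ2 loci BnaA07g21950D and BnaA07g21960D are separated by 80 bases on A07, with lengths of 364 and 820 bases.

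**Figure D4:**
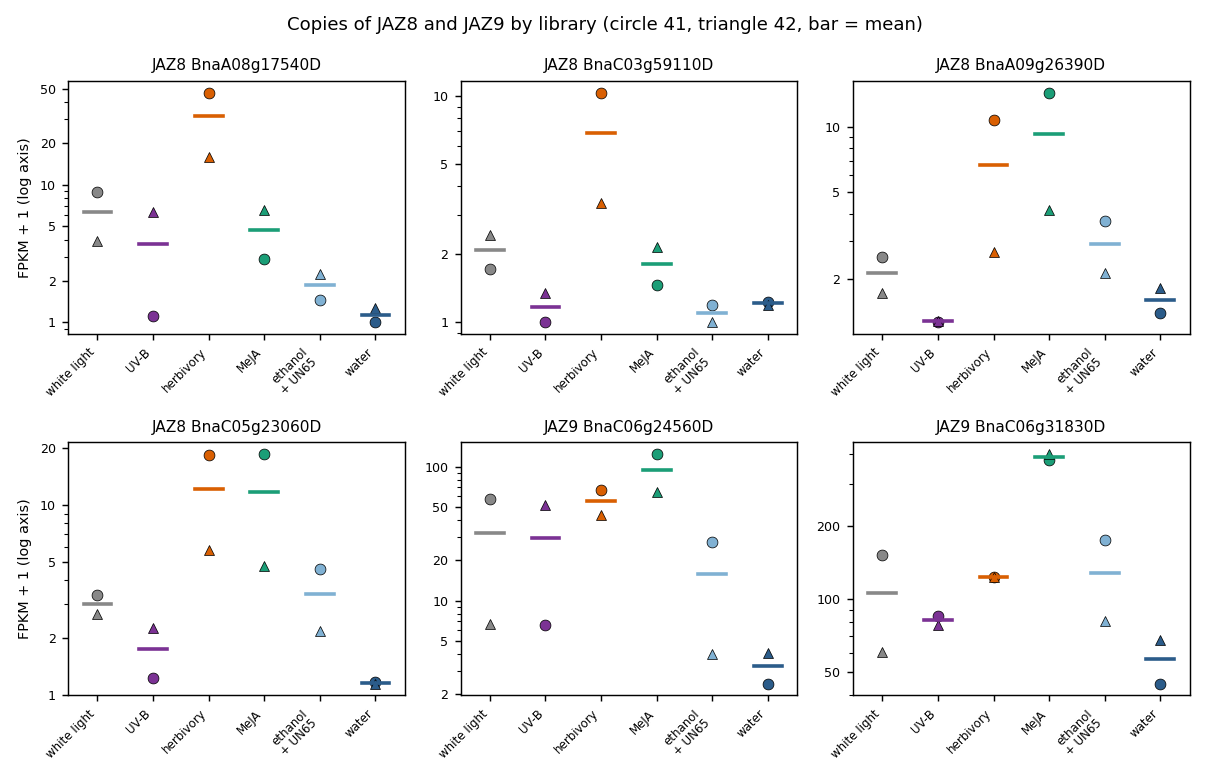
FPKM + 1 (log axis) of 4 JAZ8 and 2 JAZ9 copies in each library, with circles for library 41, triangles for 42 and bars for the mean of 2. BnaA08g17540D is highest under herbivory (45.9 and 15.0 FPKM), and both JAZ9 copies have their highest group mean after MeJA. The MeJA and herbivory libraries of BnaC06g24560D overlap.

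White light plants, which were not sprayed, were compared with water-sprayed plants. All 10 genes were lower in water with separate libraries, against 27.2% of all genes, by a median log2 fold change of -1.47. None was called in limma, against 0.481% of all genes called lower, and 6 had an unadjusted p under 0.05, against 10.8% of all genes that were lower with such a p. Of 48 loci, 44 were lower, 32 of them with separate libraries, against 27.0% of all loci, and 0 were called in limma, against 0.712%. JAZ5 came closest, at 53.3 and 35.2 FPKM in white light and 6.71 and 13.1 in water, a log2 fold change of -2.09 ± 0.57 with an adjusted p of 0.0977. Spray, cover and light differed together between these groups and cannot be told apart. In white light 9 of 10 genes were lower in library 42 than in 41, the exception being JAZ12.

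Other genes of the pathway were counted from lists written from general knowledge. After MeJA against water, where 0.816% of all genes were called higher, 3 of 11 tested genes of jasmonate biosynthesis were called higher, among them LOX2, a chloroplast lipoxygenase that opens the pathway, with a log2 fold change of 3.57 ± 0.47. Of the genes that inactivate or recycle the hormone, 3 of 8 tested were called higher, including the amidohydrolase ILL6 at 3.58 ± 0.48. IAR3, another amidohydrolase and the most abundant of that list, had 3.82 ± 0.91 and was not called. Of 10 genes of perception and JAZ partners, 2 were called higher: MYC2 at 2.77 ± 0.46, and JAM1, a repressor that competes with MYC2, at 2.29 ± 0.36. Of 3 output genes, VSP2, a storage protein induced by jasmonate, was called at 8.21 ± 1.26, and CORI3 was not, at 2.49 ± 0.68. Over the 12 fits that each left out 1 library, called genes ranged from 0 to 3 in biosynthesis, 0 to 4 in turnover, 0 to 2 in perception and partners and 0 to 1 in output. With 1 of the 4 compared libraries left out, no gene of these lists was called except 1 of turnover and 1 of perception and partners without MeJA 42.

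The TIFY relatives, which share the TIFY motif with JAZ proteins but are not named JAZ, gave a contrast. None of 5 was called in limma after MeJA against water, 0 had an unadjusted p under 0.05, and their median log2 fold change was -0.04. TIFY8 had -0.34 ± 0.34 and ZML1 0.10 ± 0.21. Of 3 further JAZ genes listed outside the members, only JAZ13 had a matched locus. JAZ13 held 10.3 and 5.72 FPKM under herbivory, 0.536 and 0.437 in white light, 3.32 and 0.178 after MeJA, and was listed at 0 in both water libraries. Its log2 fold change for herbivory against white light was 2.55 ± 0.64 with an adjusted p of 0.345. Under UV-B, MYC4, a MYC factor bound by JAZ proteins, was called lower at -2.06 ± 0.50, and AOC4, an allene oxide cyclase of hormone synthesis, was called lower at -1.31 ± 0.23, against 1.39% of all genes called lower. The MYC4 call was made in 0 of the 12 fits that left out 1 library and the AOC4 call in 9. MYC4 and AOC4 were picked for naming once their values were known.

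**Figure D5:**
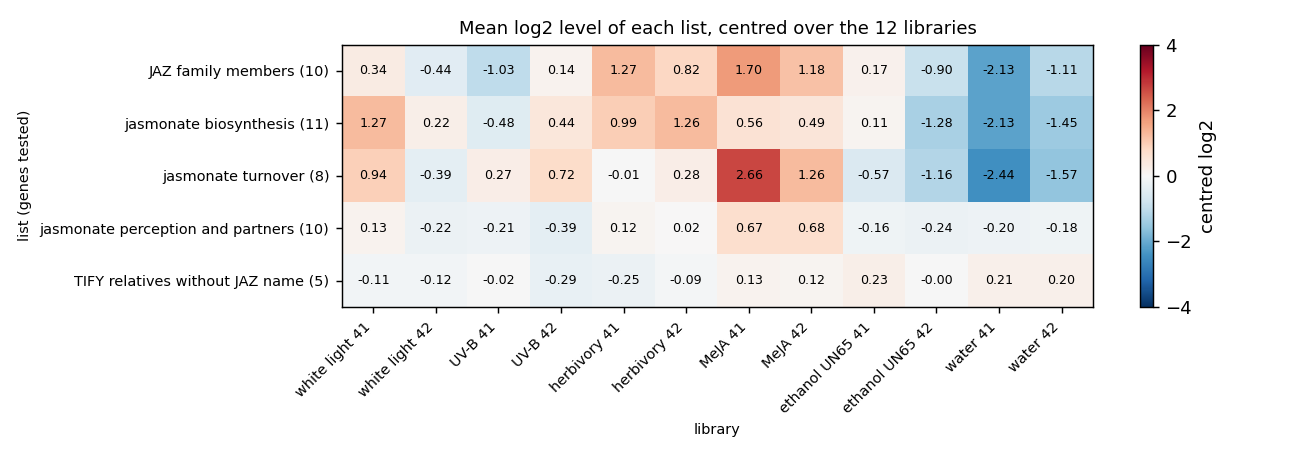
Mean log2(FPKM + 1) of the genes tested in each list, centred over the 12 libraries (columns), with red above and blue below the mean. The JAZ members run from -2.13 in water 41 to 1.70 in MeJA 41, while the TIFY relatives stay between -0.29 and 0.23.

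The genes most like the family were ranked by Pearson correlation with the mean centred log2 profile of the 10 members over the 12 libraries. The libraries share groups and scaling, so the values are a description. Among the members, JAZ6 (0.98), JAZ5 (0.97) and JAZ1 (0.95) lay closest to that mean, and JAZ3 (0.70) and JAZ12 (0.65) farthest. Each member is itself part of the mean, so these values are not comparable with those of genes outside the family. Outside the family the highest was AT5G05600, the jasmonate oxygenase JOX2, at 0.97. It held 385 and 214 FPKM after MeJA, 106 and 96.4 under herbivory, and 5.66 and 15.9 in water. The next were AT1G19190 (0.95), OPCL1 (0.95), a CoA ligase of jasmonate synthesis, AT2G44578 (0.95), CYP94C1 (0.95), which oxidises the active hormone, and GSTU13 (0.95), a glutathione transferase. CYP81D1 (0.94), AT4G00500 (0.93), JR1 (0.93), a jasmonate-responsive lectin, and AT1G09575 (0.93) completed the 10.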

How the data were processed

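The authors sequenced leaf RNA of 12 labelled libraries (TruSeq, NextSeq) and, per the submitters' notes, used TopHat2 and Cufflinks 2.2.1. TAIR10 is the build those notes name, whereas the loci carry B. napus names and positions whose build is not given in the sources used here. The deposited matrix, named as read counts, holds FPKM: the mean of its 2 UV-B columns matches the authors' UV-B group FPKM (relative tolerance 0.0001) at each of the 101040 loci. The authors' comparison tables also hold group FPKM, fold changes on the log2 scale, and p-values with q-values, of which only locus names, positions and Arabidopsis matches were used (85719 loci had a match). A further 22 columns of single libraries match no label and were not used.

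Libraries were rescaled by their median ratio to the mean of all (factors 0.716 to 1.04), 1 was added and log2 taken. The limma fits (3.58.1, R 4.3.3) used group means of the 12 libraries and a trended prior variance, for 8 comparisons. They took loci, and genes summed over loci, that reached 1 FPKM in 2 or more libraries. Called means a log2 fold change of 1 or more in size with an adjusted p under 0.05. Depth is unknown, so no counting interval is given. Members and lists were chosen with earlier results of these data known. Named are all members and their loci, the 10 genes outside the family most correlated with its mean profile, and, per list, the gene with the smallest p after MeJA against water and the one with the highest mean. The fit was tested on simulated data. Alternatives covered scaling, pseudocount, filter, compared groups alone, replicate block, minimum fold change, low stretches and each library left out. A low stretch is a run of 51 loci (step 10) whose median log2 in a library is -1 or less. The copy test, the fit without the 2 libraries lacking read steps and the alternatives for the lists and for BnaA02g05120D were chosen after seeing the data. No sequence is shown.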

Additional observations from a re-analysis of the deposited data

How the results depend on the processing

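All 10 genes stayed higher than in water after MeJA, with ethanol and UN65, under herbivory and in white light, and higher after MeJA than with ethanol and UN65, in every alternative run, while calls did not hold. For MeJA against water, the gene count of 4 fell to 0 in the compared groups alone and without the 2 libraries lacking read steps, and ranged from 0 to 5 with each library left out. The locus count of 10 fell to 2 with no filter on low values, 0 in the compared groups alone, and 0 without the 2 libraries, and ranged from 0 to 11. For herbivory against water, the gene count of 5 fell to 0 with no filter and in the compared groups alone, 3 at pseudocounts of 0.1 and 0.5 and without low stretches, and 1 without the 2 libraries, ranging from 0 to 5. The locus count of 12 fell to 3 with no filter, 4 at a pseudocount of 0.1, 7 without low stretches and 5 without the 2 libraries, ranging from 0 to 13. For herbivory against MeJA, the locus count of 1 fell to 0 with equal library totals, no filter, the compared groups alone, pseudocounts of 0.1 and 0.5, and without the 2 libraries, ranging from 0 to 1, and the gene count rose from 0 to 1 with the values as deposited. For herbivory against white light the locus count rose above 0 only without herbivory 42, a fit for which no share over all loci is given. The causes were not tested.

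The replicate numbers 41 and 42 gave no pairing common to all groups. Deviations of same-numbered libraries correlated from -0.372 to 0.407 with values over 0.1 in 4 of 15 pairs of groups. With the replicate block, calls for MeJA against water were 3 loci, for herbivory against water 3 genes and 4 loci, and for herbivory against MeJA 0 loci.

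Values of genes that were not called changed sign under some settings. For herbivory against white light, JAZ12 (0.027) and JAZ2 (0.32) did with equal library totals and JAZ2 (0.10) with the values as deposited. With each library left out, JAZ2 ranged from -0.55 to 0.38, JAZ3 from -0.15 to 1.01 and JAZ9 from -0.50 to 0.86. For UV-B against white light, JAZ10 (0.39), JAZ6 (0.11) and JAZ9 (0.013) did without the 2 libraries, and with each library left out JAZ10 ranged from -2.30 to 0.39, JAZ6 from -0.63 to 0.11 and JAZ9 from -0.90 to 0.47. For herbivory against MeJA, JAZ5 (0.0063) and JAZ6 (0.095) did with equal totals, and with each library left out JAZ10 ranged from -1.47 to 0.78, JAZ6 from -0.44 to 0.18 and JAZ7 from -0.19 to 1.97.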
